A study of Mus musculus with 5 samples.

Results

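The Hox genes are the transcription factor genes that lie side by side in the Hoxa, Hoxb, Hoxc and Hoxd clusters. The members described here are the protein-coding genes of the deposited count table whose GENCODE M21 symbol is Hoxa, Hoxb, Hoxc or Hoxd followed by a number from 1 to 13. This gave 39 genes of 55335 gene IDs, with 11 in Hoxa, 10 in Hoxb, 9 in Hoxc and 9 in Hoxd, and all 39 had a row in the table. The study compared primary mouse lung fibroblasts, the matrix-making connective tissue cells grown out of lung, exposed for 24 h to 5 ng/mL of the cytokine TGF-β1 (3 libraries) with cells given vehicle (2 libraries, called controls). The labels give no strain, age, sex or genotype, and name lung as the tissue for all 5 libraries. The series calls the replicates independent and does not say whether they came from separate animals or from dishes of the same cells. The p-values therefore cover only variation among the 5 libraries, part of which may be technical.

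Hox proteins bind DNA through a homeodomain and give cells their address along the body axis of the embryo. Within a cluster the genes stand in the order in which they are used along that axis: low numbers toward the head, high numbers toward the tail. Genes that carry the same number in different clusters, called paralogs, descend from one ancestral gene and are the most alike. Fibroblasts keep a pattern of active Hox genes that reflects where in the body they came from. In mouse lung, Hoxa5 is the member best known for a role in development, and retinoic acid, Polycomb and Trithorax proteins are known regulators of the clusters.

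The homeobox, the stretch of each gene that encodes the homeodomain, is the part in which members are most alike, and such likeness bears on whether reads can be told apart between them. Tested members were compared in pairs on the GENCODE M21 transcripts where gene spans do not overlap. Of 167 such pairs, 1 shared a run of 50 bases or more, and the median longest shared run was 17 bases. Whether reads were given to the wrong member was not tested.

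Libraries held 34283288 to 43163967 counts. Across genes, log2 levels of libraries in the same group correlated at 0.987 to 0.989, and of libraries in different groups at 0.958 to 0.960. The treatment showed in the response genes listed for a check, of which 8 of 8 rose. The counts of marker genes below stand beside 44.5% of all tested genes called by edgeR, 21.3% higher and 23.2% lower. The 10 fibroblast markers all passed the test, 5 higher and 5 lower, and summed to 45420 and 46920 CPM (counts scaled to library size with TMM factors) in the controls and 53460 to 53910 CPM with TGF-β1. The collagen gene Col1a1 rose from 10220 to 16480 CPM, while the receptor gene Pdgfra fell from 177 to 43.6 CPM. Of 8 epithelial markers, Sftpc, Sftpb, Nkx2-1 and Scgb1a1 had 0 counts in all 5 libraries, and 3 were tested. Cdh1 rose from 2.03 to 3.92 CPM, Krt18 fell from 50.5 to 44.6 CPM, Krt8 did not pass at 35.5 and 34.6 CPM, and the list summed to between 80.7 and 90.7 CPM. Markers of other cells were present and moved with the treatment. The 10 mesothelial markers all fell, from a summed level of 1537 and 1628 CPM in the controls to between 206 and 234 CPM. Of 6 tested leukocyte markers of 8 listed, 5 fell and 1 rose, with a summed level of 2292 and 2358 CPM in the controls and 1381 to 1415 CPM with TGF-β1, most of it from the macrophage gene Lyz2, and Cd3e had 0 counts. Of 8 smooth muscle and pericyte markers 2 rose and 4 fell, and the 7 endothelial markers summed to at most 4.95 CPM in any library. The part of these cells in the Hox values was not tested. In RNA from whole cultures, fewer cells of a type and less RNA per cell cannot be told apart.

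The cultures held transcripts of an anterior and central set of Hox genes, and the tail-end genes were near or at 0. Levels between genes are compared per length, as CPM per kilobase of merged exons (CPM per kb). Of the 23 members with paralog numbers 1 to 8, 17 had enough counts to be tested, but only 2 of the 16 members numbered 9 to 13 did, Hoxb9 and Hoxc13. In all, 19 members passed the low-count filter, each with at least 25 counts in every library, and these held all but 0.177% of the 55889 Hox counts. The 4 clusters contributed unequally: Hoxb gave 52.1% of Hox counts, Hoxa 43.6%, Hoxc 4.17% and Hoxd 0.0930%.

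**Figure D1:**
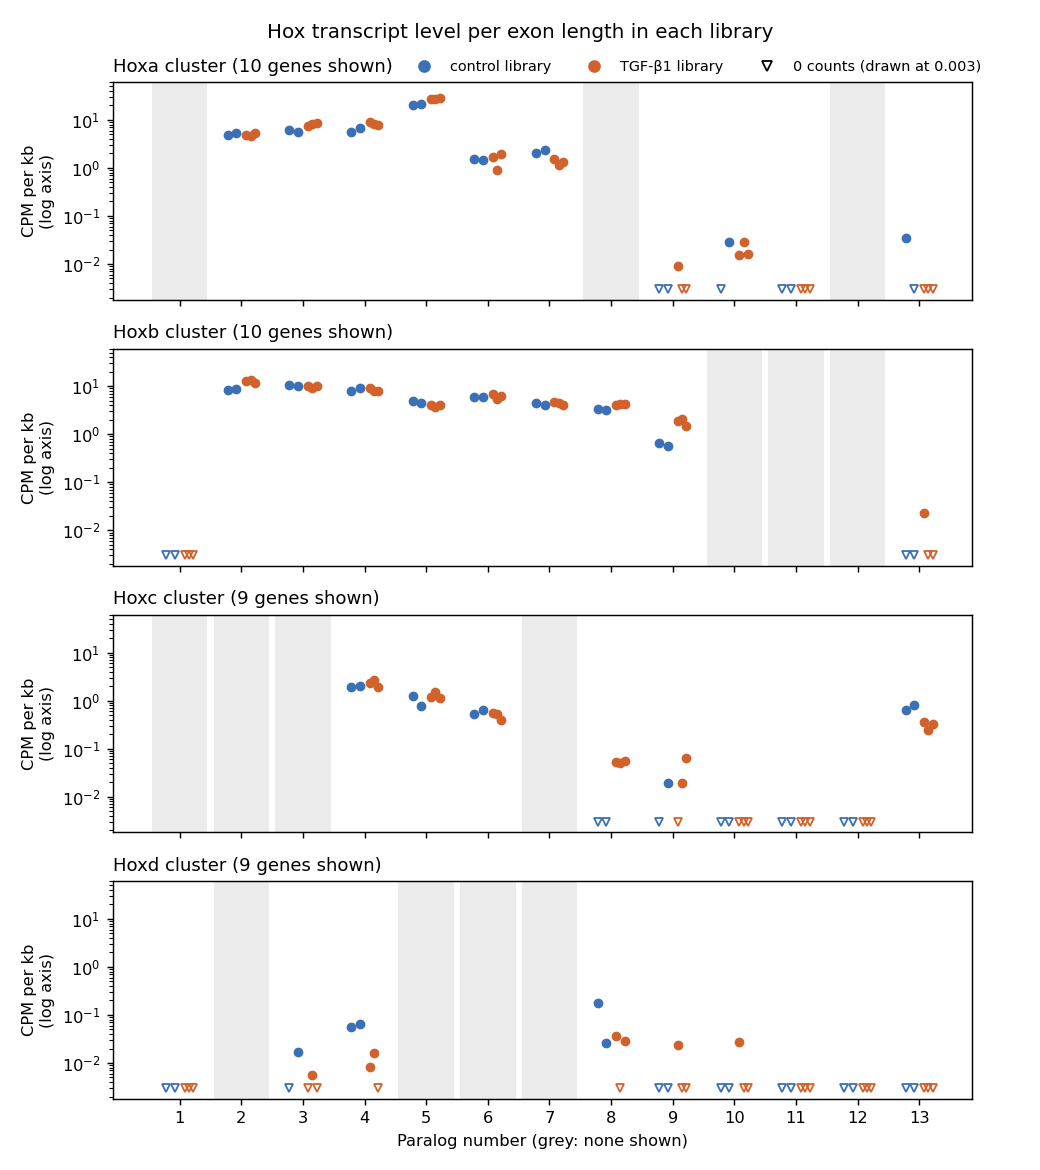
Level of 38 Hox genes in each library, in CPM per kb of merged exons on a log axis, by paralog number in the 4 clusters. Blue points are the 2 control libraries, orange points the 3 TGF-β1 libraries, and open triangles libraries with 0 counts. Hoxa2 to Hoxa7 and Hoxb2 to Hoxb9 lie above most others, and Hoxa5 is the highest at a mean of 24.7 CPM per kb.

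Hoxa5 had the highest level per length of all members, with 20.8 CPM per kb in the controls and 27.2 CPM per kb with TGF-β1. Hoxb2 followed at 11.1 CPM per kb over the 5 libraries, then Hoxb3 at 9.93, Hoxb4 at 8.44, Hoxa4 at 7.48 and Hoxa3 at 7.14 CPM per kb. In the control libraries the order of this group was different: Hoxb3 stood above Hoxb2 there, at 10.3 against 8.60 CPM per kb. The lowest of the tested members were Hoxc6 and Hoxc13, at 0.523 and 0.475 CPM per kb. Merged exon length counts every annotated exon once, and gives Hoxa3 6014 bases; which transcripts of a gene were present was not measured.

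In Hoxa and Hoxb, genes with counts stood in an unbroken run that stopped at an edge. In Hoxa, on chromosome 6 from 52155590 to 52260880 of GRCm38, Hoxa2 to Hoxa7 were all tested, and Hoxa9, Hoxa10, Hoxa11 and Hoxa13 had at most 4 counts in any library. In Hoxb, on chromosome 11 from 96194316 to 96368256, Hoxb2 to Hoxb9 were tested, Hoxb1 had 0 counts throughout and Hoxb13 had 2 counts in 1 library. In Hoxc, on chromosome 15 from 102921103 to 103036852, Hoxc4, Hoxc5 and Hoxc6 were tested, Hoxc8 and Hoxc9 had at most 6 counts, and Hoxc10, Hoxc11 and Hoxc12 had 0. Hoxc13, at the far tail end of that cluster, had 25 to 82 counts in every library although the genes beside it had 0.

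No member of Hoxd, on chromosome 2 from 74668310 to 74765142, reached the filter. Counts of Hoxd8 were 17 and 3 in controls against 4, 0 and 3 in TGF-β1 libraries. Counts of Hoxd4 were 6 and 8 in controls against 1, 2 and 0 in TGF-β1 libraries. Hoxd3, Hoxd9 and Hoxd10 had at most 3 counts in a library, and Hoxd1, Hoxd11, Hoxd12 and Hoxd13 had 0 everywhere. Exons of Hoxd3 and Hoxd4 overlap each other on the same strand, so their few counts could have been given to either.

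Over all clusters, 9 members had 0 counts in all 5 libraries, which over these libraries allows a level of up to 0.0151 CPM, a limit that covers counting error only. The other 11 untested members had 2 to 27 counts in all. Hoxc8 is named after its values were seen: both controls had 0 counts and each TGF-β1 library had 6. With 3 counts for the 2 controls together as the limit and the TGF-β1 counts taken as exact, it was at least 3.85-fold higher. Without the low-count filter its adjusted p by edgeR was 0.0308, in a fit that called 3071 of 25671 genes higher. Hoxc8 was picked for these same values, so that p is no support for a change.

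The comparison of TGF-β1 with vehicle asked which members differ after 24 h. At an adjusted p under 0.05, 6 of the 19 tested members rose, 3 fell and 10 were not called, by edgeR's quasi-likelihood test with Benjamini-Hochberg adjustment over all 16380 tested genes. That is 47.4% of the tested members, beside 44.5% of all tested genes called in either direction, 21.3% higher and 23.2% lower, so the share called was near the background. Among tested protein-coding genes alone, 49.6% were called, 23.4% higher and 26.2% lower. Tested members had a median log2 fold change of 0.05, beside 0.00 for all tested genes. Scaling by library totals alone shifts the median of all genes by −0.10, and under it 4 members were higher and 5 lower, a higher share of 44.4% against 66.7% with TMM. Most changes were small: 2 members changed at least 2-fold, 1 changed between 1.5-fold and 2-fold, and the other 6 called members changed by less than 1.5-fold. Libraries of the 2 groups did not overlap for 11 of the 19, beside 64.6% of all tested genes, 31.6% with TGF-β1 above and 33.0% with TGF-β1 below.

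**Figure D2:**
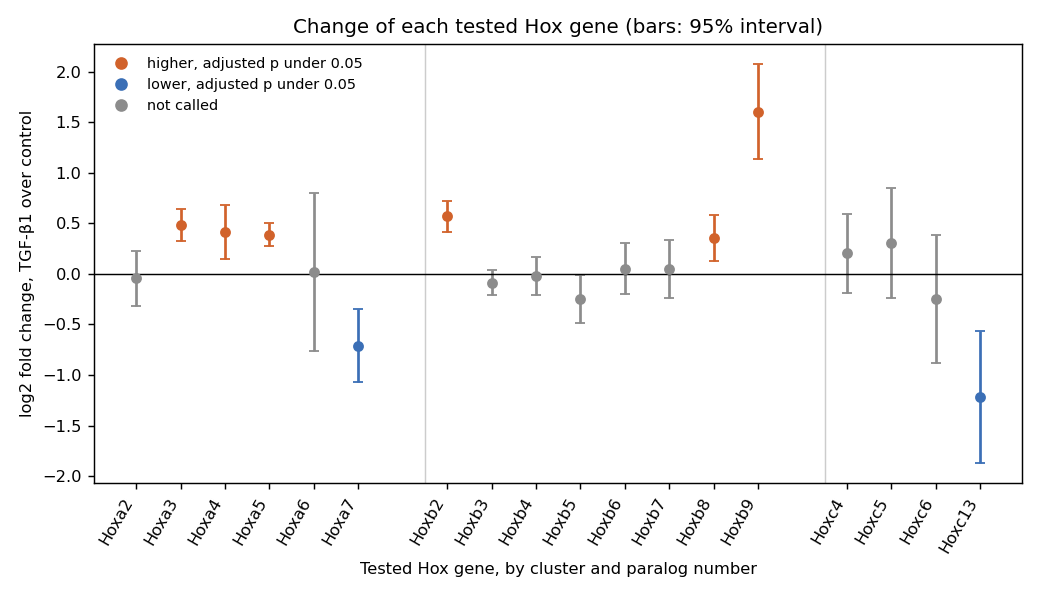
Log2 fold change of TGF-β1 over control for 18 of the 19 tested Hox genes, ordered by cluster and paralog number, with 95% intervals as bars. Orange marks the 6 genes called higher, blue 2 of the 3 called lower and grey the 10 not called. Hoxb9 at 1.60 and Hoxc13 at −1.22 lie farthest from 0.

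Hoxb9, the most tail-ward active gene of its cluster and known from the mouse thoracic skeleton, rose the most. It lies on chromosome 11 from 96271457 to 96276595 (ENSMUSG00000020875). Its level was 1.66 and 1.45 CPM in the controls and 4.92, 5.38 and 3.85 CPM with TGF-β1. Every TGF-β1 library was far above both controls, with TGF-β1 replicate 3 the lowest of the 3. The mean went from 1.55 ± 0.146 (SD, n = 2) to 4.72 ± 0.784 CPM (SD, n = 3), a 3.04-fold rise (log2 fold change 1.60, SE 0.21, edgeR adjusted p = 0.000216). Hoxb9 was also the only member called against a null of a 1.5-fold change, a test that 10.9% of all tested genes passed, 3.44% higher and 7.47% lower. It was called under all 14 alternatives, with log2 fold changes of 1.5 to 1.73.

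Hoxb8, next to it and known from mouse blood and nervous system development, rose less. It stood at 8.90 and 8.47 CPM in the controls and 10.7, 11.2 and 11.4 CPM with TGF-β1 (chromosome 11, 96281905 to 96285315). The groups did not overlap, but they lay close together. Its log2 fold change was 0.35 (SE 0.10, edgeR adjusted p = 0.0177), and the call was lost without control 1 (adjusted p = 0.0538), without control 2 (adjusted p = 0.101) and with library totals (adjusted p = 0.0673). Counts of Hoxb9 per count of Hoxb8, a ratio that needs no scaling between libraries, were 0.186 and 0.171 in the controls and 0.461, 0.481 and 0.338 with TGF-β1.

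Hoxb2, at the head end of the cluster and a gene of hindbrain patterning, also rose. It stood at 28.9 and 31.1 CPM in the controls and 45.7, 46.3 and 41.4 CPM with TGF-β1 (chromosome 11, 96350525 to 96354012). All TGF-β1 libraries were well above both controls. The controls averaged 30.0 ± 1.56 CPM and the TGF-β1 libraries 44.5 ± 2.67 CPM (log2 fold change 0.57, SE 0.07, edgeR adjusted p = 0.000118). Its neighbour Hoxb3 stood at 45.1 and 42.4 CPM in the controls and 42.0, 39.6 and 42.0 CPM with TGF-β1, and did not pass (log2 fold change −0.09, 95% interval −0.21 to 0.04, adjusted p = 0.25 by edgeR). Hoxb3 was thus above Hoxb2 in counts in both controls, with ratios of 1.56 and 1.36, and close to it with TGF-β1, with ratios of 0.918, 0.854 and 1.01. The antisense RNA Hoxb3os overlaps 953 bases of Hoxb2 exons and 2250 bases of Hoxb3 exons. It had 0.056 and 0.052 times their counts. The strand setting of the counting is not stated, and the part of this overlap in these values was not tested.

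The middle of the cluster, Hoxb4 to Hoxb7, did not pass the test, and the intervals bound what could have been missed. Hoxb4, a gene known to expand blood stem cells, stood at 20.5 and 23.1 CPM in the controls and 23.0, 20.8 and 20.8 CPM with TGF-β1 (95% interval of the log2 fold change −0.20 to 0.17). Hoxb6 stood at 11.5 and 11.7 CPM in the controls and 13.3, 10.7 and 12.2 CPM with TGF-β1 (interval −0.20 to 0.30). Hoxb7 stood at 6.91 and 6.35 CPM in the controls and 7.31, 6.97 and 6.31 CPM with TGF-β1 (interval −0.24 to 0.34). In each of the 3 genes the groups overlapped. Hoxb5, a gene expressed in the mesenchyme of the embryonic lung, stood at 14.0 and 12.2 CPM in the controls and 11.4, 10.2 and 11.4 CPM with TGF-β1. Its groups did not overlap, yet it did not pass (log2 fold change −0.25, 95% interval −0.49 to −0.008, adjusted p = 0.0878 by edgeR). That interval, which is not adjusted for the number of genes, leaves out 0. The antisense RNA Hoxb5os overlaps 100 bases of Hoxb5 exons. Hoxb3 and Hoxb5 were both called lower with library totals, with adjusted p = 0.0219 and 0.0235 by edgeR.

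In Hoxa, Hoxa3, Hoxa4 and Hoxa5 rose, and Hoxa7, toward the tail end, fell. Hoxa5, which mouse lung and airway development needs, stood per length at 20.6 and 21.1 CPM per kb in the controls and 27.2, 26.6 and 27.9 CPM per kb with TGF-β1 (chromosome 6, 52201754 to 52204587, ENSMUSG00000038253). The libraries of each group lay within a narrow band, far apart from the other group. The mean went from 39.1 ± 0.692 to 51.1 ± 1.15 CPM, a 1.31-fold rise (log2 fold change 0.39, SE 0.05, edgeR adjusted p = 0.000216). Per length Hoxa5 was the highest member in each of the 5 libraries.

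Hoxa3, a gene of thymus, parathyroid and neck patterning, stood at 36.4 and 32.8 CPM in the controls and 45.4, 48.8 and 51.4 CPM with TGF-β1 (chromosome 6, 52169062 to 52213336). All TGF-β1 libraries exceeded both controls (log2 fold change 0.49, SE 0.07, edgeR adjusted p = 0.000432). Its gene span runs across Hoxa4, Hoxa5 and Hoxa6, though no exon is shared with them. The antisense RNA Hoxaas2 overlaps 503 bases of its exons and had 0.12 times its counts, which leaves some uncertainty in the Hoxa3 value. Hoxa4 stood at 9.05 and 10.8 CPM in the controls and 14.5, 12.8 and 12.5 CPM with TGF-β1. It was called higher (log2 fold change 0.42, SE 0.12, edgeR adjusted p = 0.0168), and lost the call without control 1 (adjusted p = 0.141), without TGF-β1 replicate 1 (adjusted p = 0.0545) and with library totals (adjusted p = 0.054).

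Hoxa7, at the tail-ward edge of the active part of the cluster, fell. It stood at 5.87 and 6.66 CPM in the controls and 4.38, 3.33 and 3.78 CPM with TGF-β1 (chromosome 6, 52214491 to 52221854). No TGF-β1 library reached either control. The log2 fold change was −0.71 (SE 0.16, edgeR adjusted p = 0.00556), a 1.64-fold decrease, and without control 2 the adjusted p was 0.0562. Hoxaas3, an antisense RNA with 0.211 times its counts, overlaps 586 bases of its exons, so this value too is uncertain. Hoxb9, at the corresponding edge of Hoxb, rose. Hoxa2 and Hoxa6 did not pass, and their intervals differ in width: −0.32 to 0.23 for Hoxa2 and −0.76 to 0.81 for Hoxa6, which had only 33 to 66 counts in a library. Hoxa6 stood at 1.35 and 1.26 CPM in the controls and 1.49, 0.786 and 1.71 CPM with TGF-β1.

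**Figure D3:**
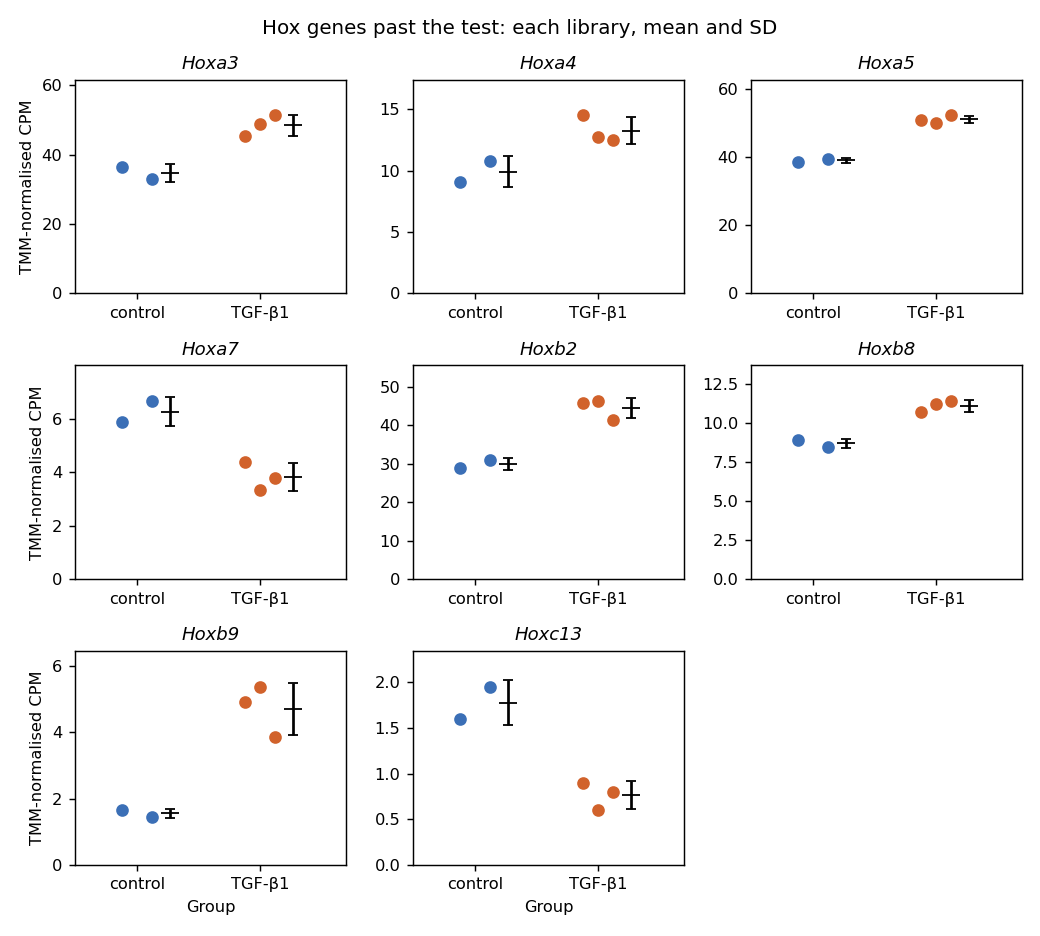
TMM-normalised CPM of 8 of the 9 Hox genes past the test in each control (blue) and TGF-β1 (orange) library, with the mean and SD of each group as bars; every vertical axis starts at 0. In each panel the groups do not overlap, and Hoxb9 goes from 1.55 to 4.72 CPM.

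Hoxc13, a gene known from hair and nail formation, was the only Hoxc member to pass. It stood at 1.60 and 1.95 CPM in the controls and 0.895, 0.595 and 0.802 CPM with TGF-β1 (chromosome 15, 102921103 to 102928814, ENSMUSG00000001655). The controls, at 57 and 82 counts, lay above the TGF-β1 libraries, at 36, 25 and 31 counts. The log2 fold change was −1.22 (SE 0.29, edgeR adjusted p = 0.00714), a 2.33-fold decrease, and without control 2 the adjusted p was 0.073. Hoxc4, Hoxc5 and Hoxc6 did not pass, with 95% intervals of −0.19 to 0.60, −0.23 to 0.85 and −0.88 to 0.38, and their groups overlapped. Hoxc4 stood at 4.92 and 5.28 CPM in the controls and 5.84, 6.97 and 4.81 CPM with TGF-β1. Hoxc6 stood at 1.24 and 1.55 CPM in the controls and 1.34, 1.24 and 0.931 CPM with TGF-β1. Hoxc5 stood at 3.93 and 2.38 CPM in the controls, wider apart than the TGF-β1 libraries, at 3.63, 4.62 and 3.41 CPM.

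Summed by cluster, Hoxa counts were 109 and 108 CPM in the controls and 131, 129 and 137 CPM with TGF-β1, and Hoxb counts were 138 and 137 CPM against 158, 151 and 149 CPM. Both sums were higher in every TGF-β1 library, by 1.22-fold for Hoxa and 1.12-fold for Hoxb, with no test of a sum. Both leaned on a few abundant members, so neither shows a rise of a whole cluster. Mean Hoxb2 went from 30.0 to 44.5 CPM, beside 137 to 153 CPM for the Hoxb sum. Of 8 tested Hoxb members, 5 were not called. Mean Hoxa3 went from 34.6 to 48.5 CPM and Hoxa5 from 39.1 to 51.1 CPM, beside 108 to 132 CPM for the Hoxa sum. Hoxa7 fell, and Hoxa2 and Hoxa6 did not pass. Hoxc sums overlapped, at 11.7 and 11.2 CPM in the controls and 11.9, 13.6 and 10.3 CPM with TGF-β1. The Hoxd sum rested on few counts (23 and 14 for controls, 9, 3 and 3 for TGF-β1 libraries), at 0.646 and 0.333 CPM against 0.224, 0.0714 and 0.0776 CPM.

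By paralog number, genes of 1 number did not change as a block. In paralog 2, Hoxb2 rose while Hoxa2 stayed at 8.57 and 9.61 CPM in the controls and 8.68, 8.14 and 9.67 CPM with TGF-β1. In paralog 3, Hoxa3 rose and Hoxb3 did not pass; in paralog 5, Hoxa5 rose while Hoxb5 had a log2 fold change of −0.25 and Hoxc5 one of 0.31. In paralog 7, Hoxa7 fell and Hoxb7 had a log2 fold change of 0.05. Paralog 6 had 3 tested genes and 0 called, by edgeR, DESeq2 and limma-voom, and 0 at an unadjusted p under 0.05 by edgeR. Summed levels were highest for paralog 3, at 78.4 ± 4.42 CPM in the controls and 89.7 ± 3.22 CPM with TGF-β1. Of 16 pairs of successive tested genes within a cluster, the within-library ratio of counts did not overlap between groups in 8. The share among pairs of other genes was not measured, and 64.6% of single tested genes did not overlap. The 8 of 16 is therefore not read as a trait of Hox pairs. An exact permutation test, two-sided, cannot go below p = 0.1 for 2 against 3 libraries, and the smallest value adjusted over the 16 pairs was 0.32.

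The promoters of called members are shown where RefSeq (GRCm38.p6) gives them, for 4 of the 9, each from 250 bases before to 50 bases after the start, since Hoxa3, Hoxa5 and Hoxb8 rose and Hoxa7 fell. Motifs searched on both strands were CAGAC, the core bound by SMAD proteins that carry the TGF-β signal, TGATNNAT, bound by HOX with PBX, and direct repeats of AGGTCA or AGTTCA spaced by 2 or 5 bases, bound by retinoic acid receptors. Capitals mark matches.
Hoxa3: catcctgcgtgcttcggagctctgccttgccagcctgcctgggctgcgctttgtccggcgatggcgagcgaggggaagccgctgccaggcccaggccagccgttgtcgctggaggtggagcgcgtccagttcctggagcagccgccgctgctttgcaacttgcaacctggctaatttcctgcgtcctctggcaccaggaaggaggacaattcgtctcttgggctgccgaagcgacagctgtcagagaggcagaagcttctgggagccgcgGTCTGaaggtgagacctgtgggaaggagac
Hoxa5: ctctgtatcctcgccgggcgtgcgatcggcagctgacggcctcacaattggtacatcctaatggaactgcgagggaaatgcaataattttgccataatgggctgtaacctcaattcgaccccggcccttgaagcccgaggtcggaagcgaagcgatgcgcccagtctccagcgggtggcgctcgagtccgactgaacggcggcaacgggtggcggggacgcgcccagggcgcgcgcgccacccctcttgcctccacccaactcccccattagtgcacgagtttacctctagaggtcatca
Hoxa7: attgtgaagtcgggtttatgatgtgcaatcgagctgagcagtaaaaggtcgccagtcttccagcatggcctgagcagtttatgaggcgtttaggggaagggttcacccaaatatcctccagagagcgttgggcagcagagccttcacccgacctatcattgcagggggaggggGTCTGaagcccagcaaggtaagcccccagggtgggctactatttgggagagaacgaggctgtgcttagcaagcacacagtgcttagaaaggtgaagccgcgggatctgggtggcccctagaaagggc
Hoxb8: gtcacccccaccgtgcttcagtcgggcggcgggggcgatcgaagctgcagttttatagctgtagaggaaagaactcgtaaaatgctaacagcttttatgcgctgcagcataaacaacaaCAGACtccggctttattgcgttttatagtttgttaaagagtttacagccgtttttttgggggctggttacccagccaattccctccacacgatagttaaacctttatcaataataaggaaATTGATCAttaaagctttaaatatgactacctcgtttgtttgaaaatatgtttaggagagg
These are chr6:52213018-52213317, chr6:52204538-52204837 and chr6:52218524-52218823, all on the minus strand, and chr11:96281655-96281954 on the plus strand. The Hoxa7 stretch lies well inside the GENCODE M21 gene span, which runs to 52221854, so it belongs to an internal start. The Hoxa3 stretch lies just inside its span, which runs to 52213336. Which starts were used in these cells was not measured. Hoxa3, Hoxa7 and Hoxb8 each held 1 match to the SMAD core, Hoxb8 held 1 match to the HOX-PBX motif and Hoxa5 held neither. The SMAD core was in 49.6% of the 32851 promoters of this length, the HOX-PBX motif in 8.85% and a retinoic acid receptor repeat in 0.0791%. Among the 24 promoters listed for 22 Hox genes, 9 held the SMAD core, 4 the HOX-PBX motif and 0 a retinoic acid receptor repeat.

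Non-coding RNAs of the clusters and the genes flanking them were examined next. Of 16 matched non-coding RNAs, 5 were tested and 0 were called by edgeR, DESeq2 or limma-voom, with 0 at an unadjusted p under 0.05 by edgeR. The untested include microRNA genes of 68 to 110 bases, whose low counts in messenger RNA libraries are not read as absence. By edgeR 44.5% of all tested genes were called. Low counts left wide 95% intervals of the log2 fold change, at −0.47 to 0.91 for Hoxb3os and −0.55 to 0.96 for Hoxaas3. Changes of the size of several called Hox genes could therefore have been missed in them. Hotairm1, in Hoxa, was the most abundant, at 5.90 and 5.87 CPM in the controls and 5.84, 5.07 and 5.30 CPM with TGF-β1 (log2 fold change −0.12, adjusted p = 0.493 by edgeR). Hotair, in Hoxc, and Hottip, at the tail end of Hoxa, had 0 counts in all libraries. Of the 3 nearest protein-coding genes on each side of each cluster, 20 of 24 were tested, 6 rose and 4 fell (10 of 20 called, beside 44.5% of all tested genes), with log2 fold changes between −0.39 and 0.41. The homeobox genes Evx1 and Evx2, which flank the tail ends of Hoxa and Hoxd, had 0 counts, and Skap2 beside the Hoxa cluster fell from 122 to 94.7 CPM (log2 fold change −0.36). Calcoco1 beside Hoxc13 fell from 79.0 to 60.3 CPM, while Skap1, Smug1 and Mtx2, next to the other ends, did not pass, and Ttll6 beside Hoxb13 had 0 counts.

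TALE homeodomain proteins bind DNA together with Hox proteins. Of 9 tested genes, 1 rose, 4 fell and 4 did not pass, a called share of 55.6% beside 44.5% of all tested genes, with a median log2 fold change of −0.20 beside 0.00 for all tested genes. Without control 1, and likewise without control 2, 2 fell. Pbx4 fell from 1.73 ± 0.0575 to 0.948 ± 0.204 CPM (log2 fold change −0.87, edgeR adjusted p = 0.0311). Pknox2, a relative of the Meis genes, rose from 14.6 ± 0.458 to 32.5 ± 2.44 CPM (log2 fold change 1.16, edgeR adjusted p = 3.74e-06).

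Among 28 Polycomb, Trithorax and related chromatin genes, known to keep Hox genes off or on, 4 rose, 8 fell and 16 did not pass, a called share of 42.9% beside 44.5% of all tested genes, which is near the background. The number that fell was 3 without control 1 or without control 2, 5 without TGF-β1 replicate 2, 5 without the low-count filter and 13 with library totals. The number that rose was 2 without control 2 and 1 with library totals. Kdm6b, which removes the Polycomb mark H3K27me3, rose from 65.5 ± 2.77 to 95.1 ± 1.33 CPM (log2 fold change 0.54, edgeR adjusted p = 1.27e-05). Cbx7, a Polycomb subunit that binds this mark, fell from 3.79 ± 0.866 to 1.37 ± 0.681 CPM (log2 fold change −1.48, edgeR adjusted p = 0.0115). Psip1, a chromatin partner of the Trithorax protein Kmt2a, fell from 65.9 ± 0.308 to 47.1 ± 1.97 CPM (log2 fold change −0.48, edgeR adjusted p = 5.86e-05).

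Retinoic acid genes changed in both directions: of 16 tested, 8 rose, 5 fell and 3 did not pass, 81.2% called beside 44.5% of all tested genes. Without control 1, 3 fell. Aldh1a1, which makes retinoic acid, fell from 184 ± 5.72 to 7.63 ± 0.577 CPM, Aldh1a3, which does the same, rose from 1.37 ± 0.185 to 31.2 ± 2.00 CPM, and Cyp26b1, which breaks it down, fell from 7.30 ± 1.38 to 1.52 ± 0.255 CPM. Of 23 tested factors that mark lung mesenchyme or body position outside the clusters, 5 rose, 12 fell and 6 did not pass, 73.9% called beside 44.5% of all tested genes, with a median log2 fold change of −0.31. Without control 1, 3 rose. Tcf21, a factor of lung fibroblasts, fell from 12.3 ± 0.948 to 2.75 ± 0.86 CPM, and Gli2, an effector of hedgehog signalling, fell from 18.3 ± 0.293 to 5.36 ± 0.444 CPM. Irx3, a homeobox gene outside the clusters, rose from 0.476 ± 0.236 to 1.74 ± 0.282 CPM. The 23 tested include Meox1, with 0 counts in the controls and 67 over the TGF-β1 libraries together. Meox1 could pass the low-count filter only through the group where it is high, so its own test carries no weight here. The same holds for its part in the 73.9%. Among members of these lists averaging 1 CPM or more, the largest changes were far larger than any in the tested Hox genes. Log2 fold changes were −4.59 for Aldh1a1 and 4.50 for Aldh1a3 against 1.60 for Hoxb9. Meox1, below that level, has only a lower bound of 14.3-fold and cannot be ranked with them.

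**Figure D4:**
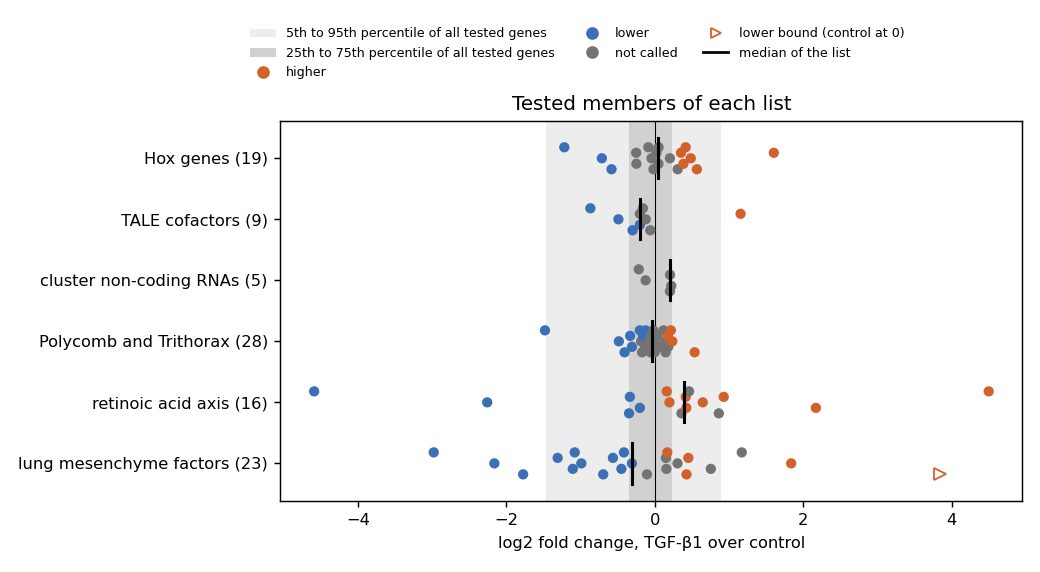
Log2 fold change of TGF-β1 over control for the tested members of each list; orange is called higher, blue called lower, grey not called, and black bars are list medians. The grey bands span the 5th to 95th and the 25th to 75th percentiles of all 16380 tested genes. The open triangle is Meox1, with 0 control counts and drawn at its lower bound of 14.3-fold. The median lies at 0.05 for Hox genes and −0.31 for lung mesenchyme factors.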

How the data were processed

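Messenger RNA was sequenced from 2 control and 3 TGF-β1 libraries. Libraries were strand-specific, made with a Vazyme VAHTS kit, per the labels' protocols. The authors deposited whole-number counts per gene, with no scaling between libraries. STAR 2.5.3a, StringTie 1.3.1c and mm10 are named in the submitters' processing notes, with no role given. For the counting tool, its strand setting and the annotation release, nothing is stated in the sources used here. Members with an exon overlap with another gene at over 0.1 of their counts (among them Hoxa3, Hoxa7, Hoxb5 and, untested, Hoxd3 and Hoxd4) are therefore uncertain.

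Columns were matched to samples by title. Symbols, coordinates (1-based, whole gene) and exon lengths came from GENCODE M21 on GRCm38, the assembly called mm10, which matched 55154 of 55335 IDs. Genes were filtered with filterByExpr (10 counts, 15 in total) and scaled with TMM. The 16380 genes kept were tested with edgeR 4.0.16 with group as the only term (two-sided quasi-likelihood test), and p-values were adjusted over all of them by Benjamini-Hochberg. SE is the absolute log2 fold change over the square root of F, and 95% intervals use the test's degrees of freedom. limma 3.58.1 and DESeq2 1.42.0 were alternatives (R 4.3.3, Python 3.11.15). The model was also run on counts simulated from its own fit, with 200 genes changed. That is far fewer than were called here, so the run does not check the scaling of these data. The 14 alternatives were scaling by RLE, upper quartile or library totals, no low-count filter, a filter of over 1 CPM in 2 libraries, DESeq2, limma-voom, a null of a 1.5-fold change, a replicate block, and leaving out each library.

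The members, lists and tests were chosen with earlier results of these data known. Every Hox member is counted, and a few results are not reported here. From each other list, the 3 largest changes were named among called members averaging 1 CPM or more, or else the most abundant member. Neighbours were named where nearest to a cluster end.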

Additional observations from a re-analysis of the deposited data

How the results depend on the processing

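Hoxb9 kept its call under all 14 alternatives, and 0 of the 9 called members changed direction under any. Against a null of a 1.5-fold change, 1 Hox member was higher and 0 lower, 6 and 9 genes of the other lists, and 563 and 1223 of all tested genes. With library totals 5 Hox members were lower and 2325 of all genes higher, and the log2 ratio of sums was 0.19 for Hoxa (0.29 with TMM) and 0.059 for Hoxb (0.16). Leaving out 1 library gave 4 to 6 Hox members higher and 1 to 3 lower, the lowest without control 2, and 14 to 19 and 18 to 30 genes of the other lists, the lowest lower count without control 1. Where a control was left out, the remaining one was taken to have the spread of the TGF-β1 libraries.

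Of the 10 Hox members not called, 6 changed sign under at least 1 alternative, and Hoxb3, Hoxb5, Hoxc4 and Hoxc6 did not under any. Hoxa6 had log2 fold changes of −0.076 with library totals, −0.059 with limma-voom and −0.25 with the replicate block. Hoxb6 and Hoxb7 were at −0.048 each with library totals. Without 1 library each, log2 fold changes ran from −0.20 to 0.30 for Hoxa6, −0.12 to 0.044 for Hoxa2, −0.096 to 0.073 for Hoxb4, −0.016 to 0.14 for Hoxb6, −0.008 to 0.11 for Hoxb7 and −0.015 to 0.71 for Hoxc5. The cause was not tested.

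The labels give control and TGF-β1 libraries shared numbers 1 and 2, but nothing says that they pair them. Same-numbered deviations from the group mean correlated at 0.0159 and 0.0161. With 2 controls, their deviations mirror each other, so these are not 2 separate checks of pairing. With the replicate block Hoxb4 was at 0.008, and 6 Hox members were higher and 3 lower, the same counts as without it. With 33 to 66 counts for Hoxa6 and 25 to 82 for Hoxc13, depth limits the low members most.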
